A study of Prunus dulcis with 36 samples.

Results

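A set of 242 unigenes was listed at 0 FPKM in normal almond fruits at every sampled stage and reached 20 FPKM or more in abnormal fruits at 1 stage or more. They are 242 of the 8676 unigenes in the deposited columns, or 2.79%. The study assembled more unigenes than these columns list, and how the listed ones were chosen is not known here. Both conditions are measured values, so the absence in normal fruits and the level in abnormal fruits describe how the unigenes were chosen and are not findings. A unigene is 1 representative sequence of a de novo transcript assembly, and FPKM counts sequenced fragments relative to the length of the unigene and to the number of mapped fragments in the library. The samples were abnormal and normal fruits of the cultivar 'ZhiPi' at 12, 17, 22, 27, 32 and 37 days after flowering (DAF), with 3 replicates in each of the 12 groups. Abnormal fruits were atrophied ones whose development had stopped and that were likely to drop, and normal fruits were taken from the same branches. No treatment or genotype separated the groups, and each replicate was a mix of cut whole fruits from 1 tree.

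Almond trees shed many young fruits in the weeks after bloom, while shoots and fruitlets draw on the same supply of sugars. Fruit drop is known to involve hormones, with auxin and gibberellin holding fruits on the tree and ethylene promoting their separation. In an assembly made without a genome, a transcript can be split over several unigenes, related genes can share reads, and RNA of other organisms on the fruit surface can be assembled along with that of the plant. A unigene seen in 1 fruit type is therefore a statement about reads that matched this sequence.

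For each unigene the files hold 1 value a group, the authors' mean over the replicates, so no spread between replicates accompanies any value and no test was made. A mean of 0 requires 0 in each replicate averaged, whereas a mean above 0 can come from a single replicate. The columns do not tell these cases apart. The number of reads behind a value is unknown, and a short unigene needs few reads to reach 20 FPKM. The number of listed unigenes above 0 ran from 4432 to 5365 in the abnormal groups and from 4522 to 5393 in the normal groups. In RNA from whole fruits, fewer cells of a type and less RNA per cell cannot be told apart. Tissue markers were not checked, since few of the unigene IDs carry a name here.

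The 242 unigenes were mostly seen at 1 stage. Of them, 228 (94.2%) were above 0 in a single abnormal group, 12 in 2 groups and 2 in 3 groups, and none of the 242 was above 0 in 4 or more abnormal groups. From 12 to 37 DAF the single-stage unigenes numbered 43, 57, 18, 31, 28 and 51. By the stage of the highest value, 17 DAF held 60 of the 242 unigenes (24.8%), 37 DAF held 52 (21.5%) and 12 DAF held 45 (18.6%). The stages of 27, 32 and 22 DAF held 32, 33 and 20 unigenes. At this limit abnormal fruits at 17 DAF thus had the most of these unigenes, and they had the fewest listed unigenes above 0 of all groups, 4432. At a limit of 10 FPKM the order of the first stages turned, with 24.7% of the unigenes highest at 12 DAF and 22.5% at 17 DAF.

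**Figure D1:**
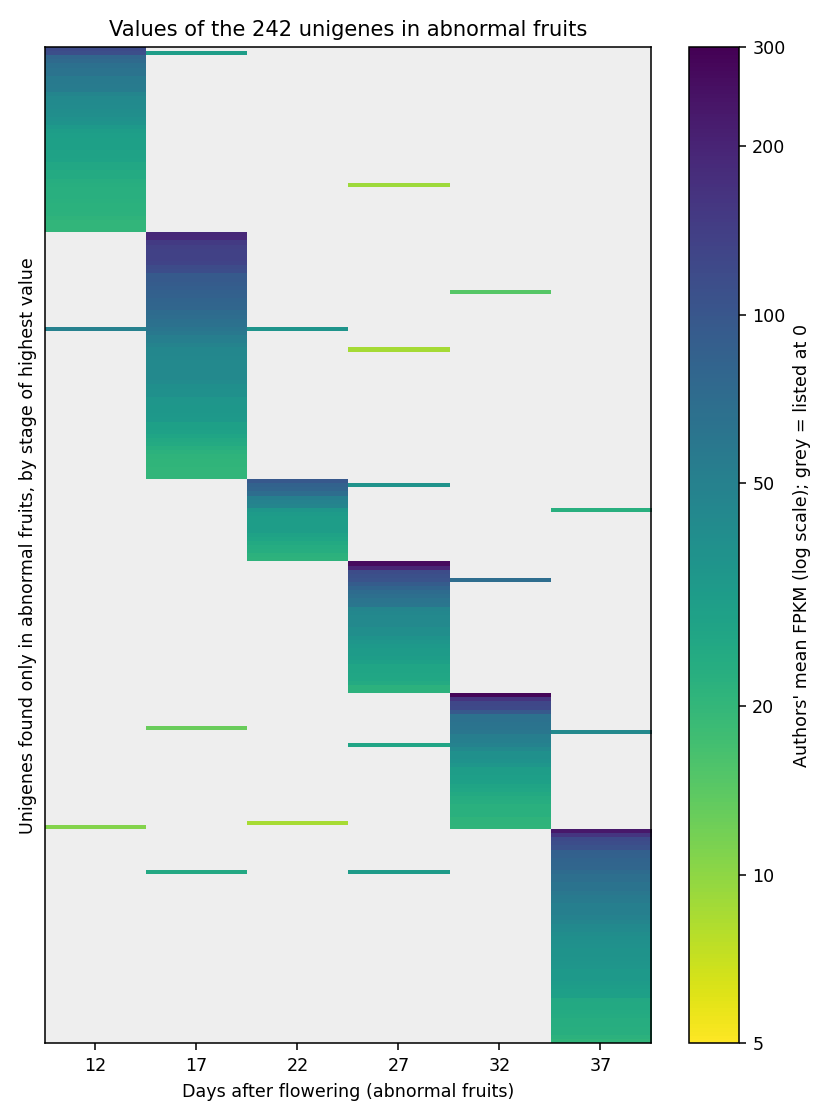
Values of the 242 unigenes in abnormal fruits. Rows are unigenes, sorted by the stage of their highest value and then by that value, columns are days after flowering, color is the authors' mean FPKM on a log scale, and grey marks a listed 0. Nearly all rows are colored at 1 stage, with 228 of 242 above 0 in a single group.

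The highest values had a median of 38.8 FPKM over the 242 unigenes, with quartiles of 27.0 and 64.3 FPKM. They reached 50 FPKM for 87 unigenes, 100 FPKM for 26 and 200 FPKM for 3. At 17 DAF the median of the highest values was 44.5 FPKM, and 10 of the 60 unigenes reached 100 FPKM. At 12 DAF the median was 29.3 FPKM and 2 of 45 reached 100 FPKM, and at 22 DAF it was 30.7 FPKM and 0 of 20 did. At 27, 32 and 37 DAF the medians were 41.6, 37.1 and 39.5 FPKM. The summed FPKM of the 242 unigenes was 3868 at 17 DAF, which is 1.57% of the total of that column. The sum at 12 DAF was 1830 FPKM (0.870%) and that at 22 DAF 880.0 FPKM (0.397%). Over the last 3 stages the sums were 2043 FPKM (0.726%), 1908 FPKM (0.647%) and 2855 FPKM (0.939%).

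**Figure D2:**
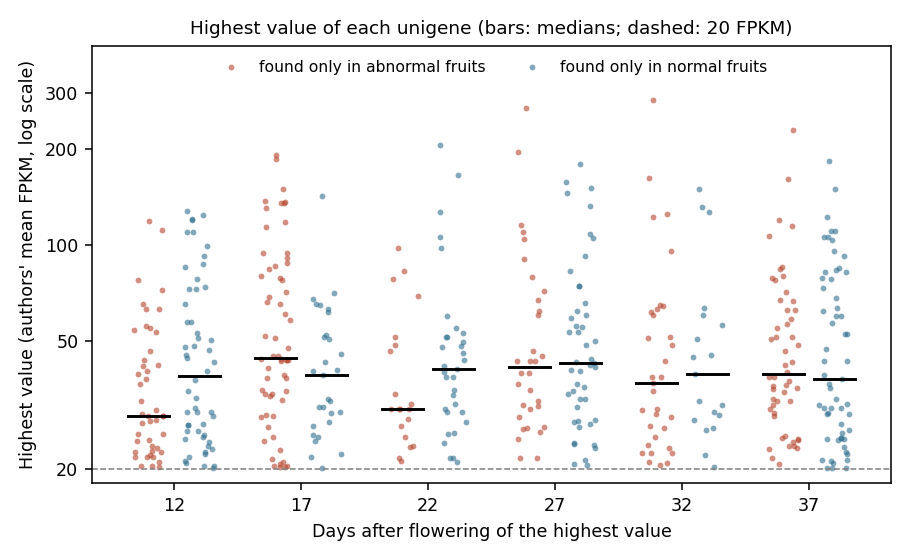
Highest value of each unigene by the stage at which it was reached. The y axis is the authors' mean FPKM on a log scale, the x axis is days after flowering, points are unigenes found only in abnormal (left of each pair) or only in normal fruits (right), black bars are medians and the dashed line is the limit of 20 FPKM. The points of both fruit types crowd just above the limit, and the median in abnormal fruits was highest at 17 DAF (44.5 FPKM).

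The 12 unigenes with the highest values were all seen at 1 stage. DN37598_c0_g1 had 284.5 FPKM in abnormal fruits at 32 DAF and was listed at 0 in the other 11 groups. DN43235_c0_g1 had 267.9 FPKM and DN23529_c1_g1 195.9 FPKM at 27 DAF. At 37 DAF, DN46320_c0_g1 had 230.1 FPKM and DN49129_c0_g1 160.7 FPKM, and at 32 DAF DN53945_c0_g1 had 161.8 FPKM. The other 6 were seen at 17 DAF, with values between 135.7 and 191.7 FPKM. These were DN31423_c0_g1, DN28572_c0_g1, DN34521_c0_g1, DN48086_c0_g1, DN45010_c0_g1 and DN54802_c0_g1. None of the 12 is named in the annotation held here.

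Several unigenes lay close to the limit on either side. The lowest members were DN11557_c0_g1 and DN28361_c0_g1, both with 20.2 FPKM at 17 DAF, and DN45654_c0_g1 with 20.3 FPKM at 12 DAF. Just outside were DN28576_c0_g1 at 37 DAF with 19.999 FPKM, DN49761_c0_g1 at 12 DAF with 19.9 FPKM and DN51859_c0_g1 at 37 DAF with 19.7 FPKM. All 6 were above 0 in 1 group only. Without the limit of 20 FPKM, 678 unigenes (7.81%) were above 0 in an abnormal group and at 0 in all normal groups, the lowest of their highest values being 1.05 FPKM. Whether the deposited list left out such unigenes with lower values is not known.

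The 14 unigenes seen at 2 or 3 stages had a median highest value of 60.5 FPKM, against 38.6 FPKM for the 228 of a single stage. Among unigenes found only in normal fruits the order was the opposite, with 35.1 FPKM for those of several stages and 40.7 FPKM for those of 1 stage. DN19980_c0_g3 was seen over the first 3 stages, with 49.3 FPKM at 12 DAF, 60.7 FPKM at 17 DAF and 36.2 FPKM at 22 DAF. DN24788_c1_g5 alternated, with 25.4 FPKM at 17 DAF, 31.6 FPKM at 27 DAF and 71.2 FPKM at 37 DAF, and was listed at 0 at the stages between. No other of the 242 unigenes was above 0 at 3 stages.

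Of the 12 unigenes above 0 in 2 groups, 5 were seen at neighbouring stages. DN47124_c0_g1 had 111.8 FPKM at 12 DAF, with 30.7 FPKM at 17 DAF. DN14435_c0_g2 had 83.3 FPKM at 22 DAF, with 36.8 FPKM at 27 DAF. DN25455_c2_g1 had 104.5 FPKM and DN24327_c0_g4 27.0 FPKM at 27 DAF, with 69.0 and 48.7 FPKM in the same order at 32 DAF. DN18612_c0_g1 had 60.3 FPKM at 32 DAF, with 43.8 FPKM at 37 DAF. In these 5 unigenes abnormal fruits thus had values of at least 27.0 FPKM at both stages.

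The other 7 were seen at stages apart from each other, and in 6 of these 7 the lower value was under 20 FPKM. DN18670_c0_g1 had 86.1 FPKM at 17 DAF, with 14.7 FPKM at 32 DAF, and DN12734_c0_g2 had 12.7 and 61.6 FPKM at these stages. DN45118_c0_g1 had 44.9 FPKM at 17 DAF, with 8.72 FPKM at 27 DAF. DN12972_c0_g1 had 23.2 FPKM at 12 DAF, with 9.12 FPKM at 27 DAF. DN22855_c0_g2 had 10.6 FPKM at 12 DAF and DN16360_c0_g2 8.61 FPKM at 22 DAF, with 20.5 and 20.8 FPKM in the same order at 32 DAF. DN24201_c5_g3 had 34.2 FPKM at 22 DAF, with 22.7 FPKM at 37 DAF. Over all 14 unigenes the second highest value was between 17.0% and 81.2% of the highest, with a median of 44.2%.

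**Figure D3:**
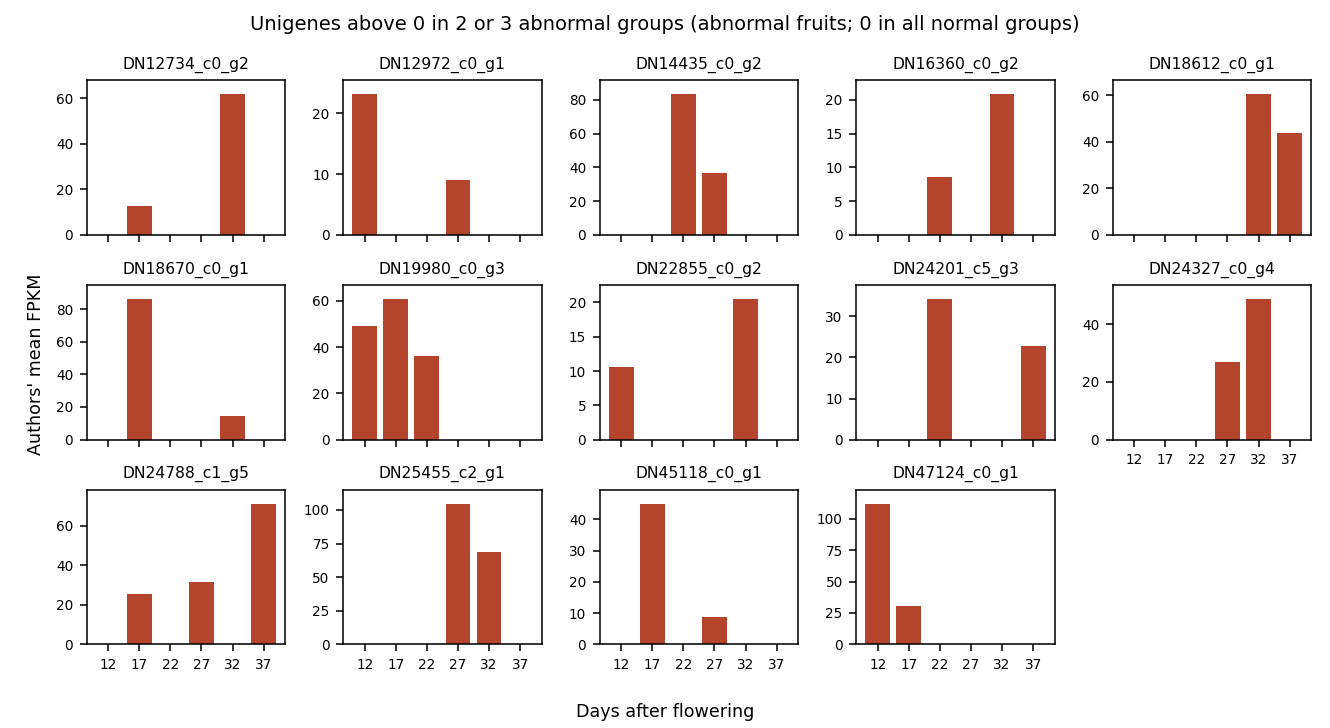
The 14 unigenes above 0 in 2 or 3 abnormal groups. Each panel is 1 unigene, bars are the authors' mean FPKM in abnormal fruits (y axis, scaled per panel) by days after flowering (x axis), and all normal groups are at 0. DN19980_c0_g3 is above 0 at 12, 17 and 22 DAF, DN24788_c1_g5 at 17, 27 and 37 DAF, and the others at 2 stages.

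With the fruit types exchanged, the same rule took about as many unigenes. There were 242 found only in abnormal and 241 (2.78%) found only in normal fruits, and without the limit 678 and 772 (8.9%). The study itself counted more genes seen in abnormal fruits alone than in normal fruits alone. Its criterion was not the rule used here, so its counts and these cannot be compared directly. The median of the highest values was 38.8 FPKM in the abnormal and 40.5 FPKM in the normal set. A single group held 94.2% of the abnormal and 92.1% of the normal set. The largest value was 284.5 FPKM in the abnormal and 206.4 FPKM in the normal set. The stages differed more than the totals. At 17 DAF the highest value was reached by 60 unigenes of the abnormal and 29 of the normal set, and at 32 DAF by 33 and 19. At 22 DAF it was 20 against 33, at 27 DAF 32 against 47, at 12 DAF 45 against 54 and at 37 DAF 52 against 59. Without values per replicate none of these differences could be tested.

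**Figure D4:**
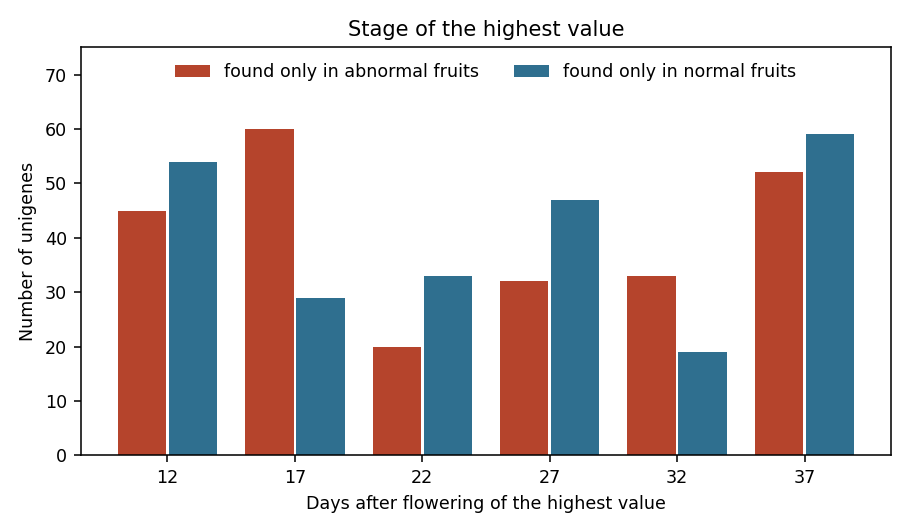
Number of unigenes by the stage of their highest value. The x axis is days after flowering and the y axis a count, with unigenes found only in abnormal fruits as the left bar and those found only in normal fruits as the right bar of each pair. The abnormal set is larger at 17 DAF (60 against 29) and 32 DAF (33 against 19), and smaller at the other 4 stages.

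Absence at all 6 normal stages is stricter than absence at the same stage. At 17 DAF, 101 listed unigenes (1.16%) had at least 20 FPKM in abnormal and 0 in normal fruits, and 62 of these belonged to the 242. At 12 DAF, 46 of 61 such unigenes (0.703% of those listed) did so. The shares were 21 of 37 (0.426% listed) at 22 DAF, 35 of 79 (0.911%) at 27 DAF, 34 of 71 (0.818%) at 32 DAF and 54 of 78 (0.899%) at 37 DAF. The remaining unigenes were above 0 in normal fruits at another stage.

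The single-stage unigenes of 12 and 17 DAF had few counterparts in normal fruits. At 17 DAF, 60 listed unigenes had at least 20 FPKM in abnormal fruits of that stage and 0 in the other abnormal groups, and 57 of them were at 0 in all normal groups too. At 12 DAF this held for 43 of 51 (84.3%). From 22 DAF on most such unigenes were also seen in normal fruits, and 18 of 52 (34.6%), 31 of 103 (30.1%), 28 of 87 (32.2%) and 51 of 175 (29.1%) were at 0 there at 22, 27, 32 and 37 DAF. Of the 300 that were also seen in normal fruits, 281 were above 0 in 1 normal group and 203 at the same stage. In normal fruits, the share of single-stage unigenes at 0 in all abnormal groups was 87.3% at 12 DAF, 65.9% at 17 DAF and between 29.2% and 43.1% later.

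**Figure D5:**
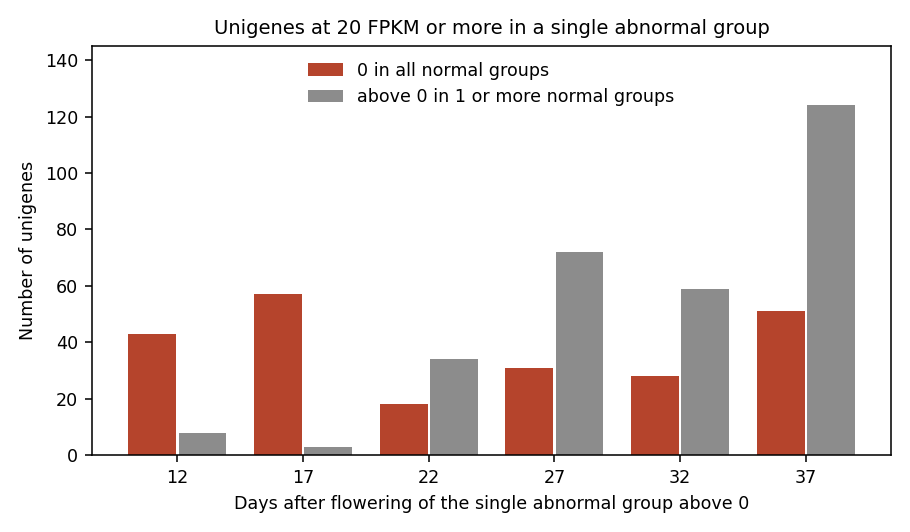
Listed unigenes with at least 20 FPKM in 1 abnormal group and 0 in the other 5. The x axis is days after flowering of that group, the y axis a count, red bars are unigenes at 0 in all normal groups and grey bars those above 0 in a normal group. At 17 DAF 57 are red and 3 grey, at 37 DAF 51 are red and 124 grey.

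Most of the other unigenes that reached 20 FPKM in abnormal fruits were seen at every stage. Of these 2387 unigenes, 1966 (82.4%) were above 0 in all 6 abnormal groups and 300 (12.6%) in 1, and the median of their highest abnormal value was 60.6 FPKM. Over both fruit types, 3201 listed unigenes reached 20 FPKM somewhere, of which 2101 (65.6%) were above 0 in all 12 groups and 450 (14.1%) in a single one. The 228 single-stage unigenes described here are 228 of these 450.

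Names could be given to few of the 242 unigenes. The parts of the study's annotation tables used here hold 22 of them, 12 with a match to a protein, domain or gene class. A part of the tables lists unigenes that the study called differentially expressed, whether annotated or not. In that part 10 of 19 members had no match (52.6%). The same held for 10 of 18 found only in normal fruits (55.6%) and 276 of all 817 listed unigenes there (33.8%). These counts cover only that part and not all listed unigenes, and were not tested. None of the 14 unigenes chosen by the study for RT-qPCR is among the 242. As members are 2.79% of all listed unigenes, 14 are too few to read anything from this.

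A cell wall enzyme was among the annotated members. DN13942_c0_g1 matched pectinesterase 47, of a family of enzymes that remove methyl groups from wall pectin, and had 41.3 FPKM in abnormal fruits at 17 DAF. Its best hit was a peach (Prunus persica) protein, and its listed domain was that of pectin methylesterase inhibitors, which many plant pectinesterases carry. Members tied to translation were DN15077_c0_g1, which matched the large-subunit ribosomal protein L35 and had 21.4 FPKM at 17 DAF, and DN15714_c0_g1, which matched a ribosome-binding GTPase of the HflX type and had 28.3 FPKM at 12 DAF. DN1292_c0_g1, with 25.1 FPKM at 22 DAF, matched the epsilon subunit of coatomer, the coat of vesicles that travel between Golgi and endoplasmic reticulum. Each of these was at 0 in the other 11 groups.

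DN12574_c0_g1 carries a protein kinase domain and had 30.7 FPKM at 27 DAF. Its match in Swiss-Prot was the Arabidopsis protein WRKY19, named there a probable transcription factor, but no WRKY domain is listed for the unigene. DN10179_c0_g1, a tubby-like protein with 30.5 FPKM at 12 DAF, belongs to a family whose Tub domain binds membrane lipids in animals. Other members match mobile elements. DN10466_c0_g1 has the integrase core domain, which inserts element DNA into the genome, and had 36.7 FPKM at 12 DAF, and DN46277_c0_g1 has a reverse transcriptase domain and had 22.3 FPKM at 32 DAF. The best hit of DN46277_c0_g1 was, however, a Eucalyptus grandis protein predicted as scarecrow-like protein 9 and marked as of low quality.

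The other 4 annotated members matched uncharacterised proteins. These were DN12734_c0_g2 with 61.6 FPKM at 32 DAF, DN12477_c0_g2 with 43.6 FPKM at 17 DAF, DN42006_c0_g1 with 24.7 FPKM at 27 DAF and DN25439_c5_g2 with 24.3 FPKM at 37 DAF. DN12734_c0_g2 was the only 1 of the 12 annotated members seen at 2 stages.

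The best-matching proteins of the 12 came from several organisms. For 5 members it was a Prunus protein, for 5 that of another plant, and for 2 that of a fungus or water mould. The last were DN1292_c0_g1, with a protein of the mycorrhizal fungus Rhizophagus irregularis, and DN15077_c0_g1, with one of the water mould Saprolegnia diclina. DN10179_c0_g1 matched Arabidopsis thaliana and DN10466_c0_g1 its relative Camelina sativa. Prunus gave 41.7% of the best hits of these members, 44.4% (4 of 9) in the set found only in normal fruits and 58.7% (423 of 721) among all listed unigenes held in the tables. Fungi and oomycetes gave 2 of 12, 0 of 9 and 50 of 721. Whether RNA of other organisms had a part in any of these values was not tested.

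A shared assembly cluster links some members to unigenes that were present in normal fruits. Trinity names unigenes by a cluster and a number within it, and members of 1 cluster have sequence in common, so reads can be divided between them. Of the 242 unigenes, 18 (7.44%) had another listed unigene in their cluster, against 10.4% of the set found only in normal fruits and 14.6% of all listed unigenes. These 18 had 20 partners, none of them a member. In normal fruits 19 of the 20 partners were above 0, and 5 were above 0 in all 12 groups. The values of these 18 members may be affected by this, which was not tested. Partners were sought only among the listed unigenes, so other members can have partners that were not seen.

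DN23047_c0_g4 had 27.0 FPKM in abnormal fruits at 17 DAF. At that stage DN23047_c0_g1, the more abundant of its partners, had 3.49 FPKM in abnormal, against 35.1 FPKM in normal fruits. In the other 5 abnormal groups this partner had between 18.9 and 38.1 FPKM, and in the normal groups between 22.7 and 41.7 FPKM. The member was thus seen at the stage where the partner was lowest. Whether reads passed from one to the other was not tested.

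DN18670_c0_g1 was the only member seen at 2 stages that had a partner. The partner, DN18670_c0_g2, had 7.95, 52.5, 12.5, 65.9, 18.6 and 12.0 FPKM in abnormal fruits from 12 to 37 DAF and 0.301, 0, 8.92, 31.8, 7.49 and 6.81 FPKM in normal fruits. It was higher in abnormal fruits at all 6 stages, with 52.5 FPKM against a listed 0 at 17 DAF, where the member had 86.1 FPKM.

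The partner of DN23921_c4_g2 was the most abundant. DN23921_c4_g2 had 28.5 FPKM at 12 DAF, where DN23921_c4_g1 had 305.0 FPKM in abnormal, against 216.2 FPKM in normal fruits, and DN23921_c4_g1 reached 3115 FPKM in abnormal fruits and 3786 FPKM in normal ones at 32 DAF. DN27250_c3_g3 had 77.7 FPKM at 12 DAF, where its partner DN27250_c3_g1 had 88.4 FPKM in abnormal, against 45.3 FPKM in normal fruits. DN25932_c1_g6 had 45.2 FPKM at 27 DAF, with 76.6 FPKM in abnormal fruits and 74.6 FPKM in normal ones for DN25932_c1_g2. DN23394_c1_g3 had 51.3 FPKM at 32 DAF, with 89.3 FPKM in abnormal fruits and 73.8 FPKM in normal ones for DN23394_c1_g4. These 4 partners were above 0 in all 12 groups. The 4 members were each above 0 in 1 abnormal group, and their 0 in normal fruits is set by the rule.

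In other clusters the partner was also at 0 in all groups of 1 fruit type. DN16810_c0_g2 had 21.6 FPKM at 37 DAF, and its partner DN16810_c0_g3 was at 0 in all normal groups, with 10.9 FPKM in abnormal fruits at 17 DAF and 14.1 FPKM in those at 27 DAF. DN25206_c3_g4 had 30.6 FPKM in abnormal fruits at 22 DAF, whereas DN25206_c3_g2 was at 0 in all abnormal groups and had 41.5, 33.3 and 15.5 FPKM in normal fruits at 27, 32 and 37 DAF. Both unigenes of this cluster met the rule, 1 in each direction, so a split by fruit type follows from the choice. They were also above 0 at different stages.

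Other members stood well above their partners. DN27668_c1_g8 had 118.8 FPKM at 12 DAF and DN24821_c0_g2 117.9 FPKM at 17 DAF, while their partners did not exceed 3.02 FPKM (DN27668_c1_g5) and 7.40 FPKM (DN24821_c0_g3) in any group. The partners of DN19642_c0_g3 (78.3 FPKM at 22 DAF), DN27888_c0_g8 (67.5 FPKM at 27 DAF) and DN12477_c0_g2 stayed at 2.05, 1.96 and 3.53 FPKM or less. The remaining 5 members with partners were DN17377_c0_g1 (38.7 FPKM), DN15531_c0_g3 (38.6 FPKM) and DN16221_c0_g2 (22.5 FPKM) at 32 DAF, DN27202_c2_g5 at 27 DAF (36.8 FPKM) and DN15077_c0_g1. Their partners had at most 10.5 FPKM in any group, the value of DN27202_c2_g7 in abnormal fruits at 17 DAF.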

How the data were processed

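RNA from abnormal and normal fruits was sequenced by the authors, who assembled unigenes with Trinity, aligned clean reads with Bowtie2, estimated counts with RSEM and normalized them with DESeq2. Versions are not given in the sources used here. The deposited unit is FPKM, 1 column per group, named by the authors as the average of the normalized values. Groups follow the sample titles, and all 12 columns were used (0 without a group). The reads behind a value are unknown, so no counting interval was computed.

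Columns were joined by unigene ID. Members were 0 in all 6 normal columns with a highest abnormal value of at least 20 FPKM. The rule was also run with the fruit types exchanged. Members and lists were chosen with earlier results of these data known. Without values per replicate no test was made. Named in the text are members with an annotation, the 12 highest, those above 0 in 3 groups, those near the limit and those sharing an assembly cluster. The other unigenes above 0 in 2 groups were named after their values were seen. IDs matched 0 entries of the reference gene table (ALMONDv2), and the study's annotation tables, held in part, gave names only. No sequences of the unigenes were used. The calculation that applies the rule was tested on simulated data with known members. These met the rule by construction, so this checks the calculation only. Alternatives were limits of 10 and 40 FPKM, tolerances of 0.1 and 0.5 FPKM, scaling by median of ratios or to equal column totals, leaving out a stage, and presence in at least 2 groups. Figures were drawn with matplotlib 3.10.9 and tables handled with pandas 2.3.3, under Python 3.11.15 with scipy 1.17.1 and numpy 2.4.6.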

Additional observations from a re-analysis of the deposited data

How the results depend on the processing

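The number of unigenes depended on the limit. A limit of 10 FPKM gave 373 found only in abnormal and 423 only in normal fruits, and 40 FPKM gave 116 and 124. Presence in at least 2 groups left 14 and 19. Tolerances of 0.1 or 0.5 FPKM in the other fruit type changed neither set, as no further unigene lay between 0 and these values there. Whether these unigenes could have values that low is not known, so this says little about the absence. Scaling to the same total gave 258 and 234 and by median of ratios 259 and 227, with 237 and 235 of the 242 abnormal ones shared. Leaving out 1 stage gave between 192 and 263 for abnormal fruits. The median highest value was 65.6 FPKM at the limit of 40 and 60.5 FPKM for presence in at least 2 groups. The share highest at 12 DAF was 24.7% at 10 FPKM, 13.8% at 40 FPKM and 25.0% without 17 DAF. The share highest at 17 DAF was 22.5% at 10 FPKM, below that of 12 DAF, 31.9% at 40 FPKM and 30.8% without 37 DAF. These moves follow from which unigenes or groups remain. Presence in at least 2 groups makes the share above 0 in a single abnormal group 0 by construction. Under the other alternatives this share was between 91.2% and 96.5%. Where a stage was left out, the share counts only the groups that remained. Counted over all abnormal groups, the share without 32 DAF was 94.7% instead of 96.5%. No paired analysis was possible because the columns hold 1 mean per group, and for the same reason no replicate could be left out. The read depth behind single values limits every count.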

Other observations

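Of the 3201 listed unigenes that reached 20 FPKM, 389 were above 0 in exactly 2 groups, and their pairs of groups were far from even. In 362 the pair was 1 abnormal and 1 normal group, against 12 with 2 abnormal and 15 with 2 normal groups. More of the possible pairs are mixed than lie within a fruit type, so an even spread would also hold more mixed pairs. The abnormal and the normal group were of the same stage for 220 of the 362, and for 124 the normal group was 1 stage earlier. Abnormal and normal fruits at 37 DAF shared 118 such unigenes. Another 54 linked abnormal fruits at 27 DAF to normal ones at 22 DAF, and 40 linked abnormal fruits at 32 DAF to normal ones at 27 DAF. Of the 362, abnormal fruits at 17 DAF had 2. These counts were made after the data had been seen, and no cause was tested.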
